A study of Xenopus laevis with 6 samples.

Results

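The response that caps injected with Mixer and caps injected with Sox17beta shared was taken as every probe set that moved in one direction on all 4 injected arrays. For each probe set, the value of each injected array was set against the uninjected array of the same replicate number, and the 4 differences had to have one sign. Of 15491 probe sets tested, 4951 (32.0%) met this rule. Of these, 2912 (18.8% of all) were higher in all 4 injected arrays and 2039 (13.2% of all) were lower. The rule itself uses the 4 differences, so these counts, and every count of test results among the members, describe the choice and are not evidence for it. With the 2 uninjected arrays standing in all 4 differences, 1 unusual uninjected value moves several of them together.

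The 6 Affymetrix arrays measured total RNA of Xenopus laevis animal caps at gastrula stage 10.5, in 3 groups of 2. Control caps were uninjected, and the other caps were labelled as expressing Mixer or Sox17beta, with no other treatment or allele named. The amount and form of the injected material, the number of caps pooled and the clutch of each sample are not stated by the labels. The labels describe the embryos as of mixed sex. No group injected with a control RNA was analysed here, so a response to injection itself and a response shared by the 2 factors cannot be told apart. Since nothing says that the replicates came from separate clutches, the p-values cover no more than the scatter among these 6 arrays, which could be technical. In bulk tissue, fewer cells of a type and less RNA per cell cannot be told apart.

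The animal cap is the ectoderm around the animal pole of the blastula, and it forms epidermis when left alone because bone morphogenetic protein (BMP) signals act within it. Nodal-type signals turn such cells towards mesoderm or endoderm. Mixer, a paired-type homeodomain protein, and Sox17beta, an HMG-box protein of the SoxF family, are transcription factors of the endoderm network downstream of those signals, and each can induce endodermal genes in caps.

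Array medians lay between 6.5 and 6.55 on the deposited log2 scale. The 44 control probe sets for absent transcripts had medians of 3.73 to 3.85 on 5 arrays and 4.06 on Sox17beta replicate 1. On that array 48.5% of probe sets lay above its highest absent control, against 57.8% to 60.7% on the others, so it stood apart. Under the same rule, 9 of the 44 absent controls (20.5%) were higher in all 4 injected arrays and 1 (2.27%) was lower. Without Sox17beta replicate 1, 9 were higher and 4 were lower in the other 3 injected arrays. The share of absent controls that were higher was thus near the 18.8% of all probe sets, and the uninjected mean lay below the highest absent control of the uninjected arrays (5.99) in 1497 of the higher and 385 of the lower members. Of the 3873 probe sets with the lowest mean levels, 21.6% were higher and 6.22% lower, and of the 3873 with the highest levels 12.7% were higher and 20.7% lower. The part of low signal in the count of higher members was not tested.

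Most members differed little from uninjected caps. Among the 2912 higher members the median difference was 0.20 on the log2 scale, and in 1259 the weakest of the 4 differences was 0.05 or less. Among the 2039 lower members the median was -0.30, and the weakest difference was 0.05 or less in 575. Just outside the rule, 6145 probe sets had 3 of 4 differences of one sign, and in 2332 of these the odd difference was 0.05 or less. All 4 differences reached 0.5 in 72 higher and 277 lower members, reached 1 (2-fold) in 14 higher and 53 lower members, and reached 2 in 3 higher members and 1 lower member. Small differences were therefore more often higher and large ones more often lower. The median over all probe sets was 0.035. Injected and uninjected values did not overlap in 1838 probe sets (11.9% of all), and all of these were members. A lack of overlap given for a gene below is therefore common among members and tied to the rule, and is no separate evidence.

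Pooling the 4 injected arrays as 1 group, with the replicate number as a block, gave 0 probe sets (0%) at a Benjamini-Hochberg adjusted p of 0.05 in limma. At an unadjusted p under 0.05 it gave 1649 (10.6%), of which 619 were higher and 1026 lower members. At an adjusted p under 0.1 it gave 149 (0.962%), 20 of them higher and 129 of them lower members. In that fit any difference between Mixer and Sox17beta caps counts as scatter. A fit that gave each group its own mean, kept the replicate block and tested the average of the 2 injected groups against uninjected caps passed 623 probe sets (4.02%), 190 higher (1.23%) and 433 lower (2.8%). Members made up 589 of them, 162 higher and 427 lower, and 34 had no common sign. Unless another fit is named, "rose" and "fell" below refer to this fit of 3 group means and the adjusted p is limma's from it. On simulated data the share of false calls of this fit exceeded its threshold, so its adjusted p-values are to be read with caution. Its calls were fragile: without the replicate block 3 remained, and leaving out any array other than Sox17beta replicate 1 left 0 to 3. Without Sox17beta replicate 1, the array that stood apart, fewer probe sets passed, and some of those were not among the 623. Counts of rises and falls on the gene lists below cover members only, and the fragility of the calls applies to every list. All 16 lists were chosen with earlier results of these data known, so their counts describe that choice and are no separate evidence. Over all probe sets, 1.05% were members that rose and 2.76% members that fell. Probe sets that passed without a common sign are given apart. List medians without Sox17beta replicate 1 come from the pooled fit, where Mixer arrays then outnumber Sox17beta arrays. A change in such a median therefore holds both the loss of that array and a greater weight of Mixer.

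The injected genes came first, as a check of the labels. mixer.L read 6.46 and 6.54 in uninjected caps, 14.07 and 14.06 in Mixer caps and 6.83 and 6.53 in Sox17beta caps. It was not a member, because Sox17beta replicate 2 differed from its uninjected partner by -0.01. The gene-specific probe set of sox17b.1.S read 6.91 and 6.7 in uninjected caps, 9.63 and 9.33 in Mixer caps and 13.11 and 13.9 in Sox17beta caps. Both factors' labels thus matched the arrays. A second probe set of sox17b.1.S was also a member, at 5.25 and 5.11 uninjected, 9.28 and 9.35 with Mixer and 12.49 and 13.11 with Sox17beta. In Sox17beta caps the array cannot tell the injected from the embryo's own transcript, so only the Mixer values of this gene bear on the caps' own RNA.

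Endodermal transcription factors led the higher members. The clearest was gata4.S, a copy of the zinc-finger regulator GATA4 of endoderm and heart, which read 3.85 and 4.41 in uninjected caps, 7.3 and 8.41 in Mixer caps and 6.41 and 7.48 in Sox17beta caps. Every injected array lay above both uninjected arrays by at least 2 log2 units. The average difference was 3.27 (9.65-fold, SE 0.14), and gata4.S rose with adjusted p = 0.000365, while the pooled fit gave adjusted p = 0.061. Its uninjected values lay below the highest absent control, so the fold may be understated.

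The forkhead gene foxa1.S, whose product opens chromatin in endoderm-derived tissues, read 6.62 and 6.42 uninjected, 7.93 and 8.46 with Mixer and 8.99 and 8.9 with Sox17beta. The groups did not overlap, and Sox17beta caps were the highest. The average difference was 2.05 (SE 0.16, adjusted p = 0.00393, rose). Both probe sets of otx2.L, a head and anterior endoderm homeobox gene, were higher members. One read 3.36 and 3.53 uninjected, 5.8 and 5.22 with Mixer and 6.23 and 6.93 with Sox17beta, a difference of 2.60 (SE 0.23, adjusted p = 0.00466, rose), with only 1 array above its highest absent control. The second, above that control on 4 arrays, differed by 1.82 (SE 0.26, adjusted p = 0.0151, rose). The GATA factor gata5.L, which acts early in endoderm, rose by a smaller 0.79 (SE 0.12, adjusted p = 0.0162). Its relative gata6.L read 5.55 and 5.69 uninjected, 6.72 and 9.22 with Mixer and 6.89 and 7.12 with Sox17beta. All 4 differences of gata6.L were 1.17 or more, but the Mixer arrays lay far apart and it did not pass (difference 1.87, SE 0.45, adjusted p = 0.0812). The other copy, gata6.S, was a higher member with a weakest difference of 0.02 and did not pass either (adjusted p = 0.41). It lay below the highest absent control on every array.

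**Figure D1:**
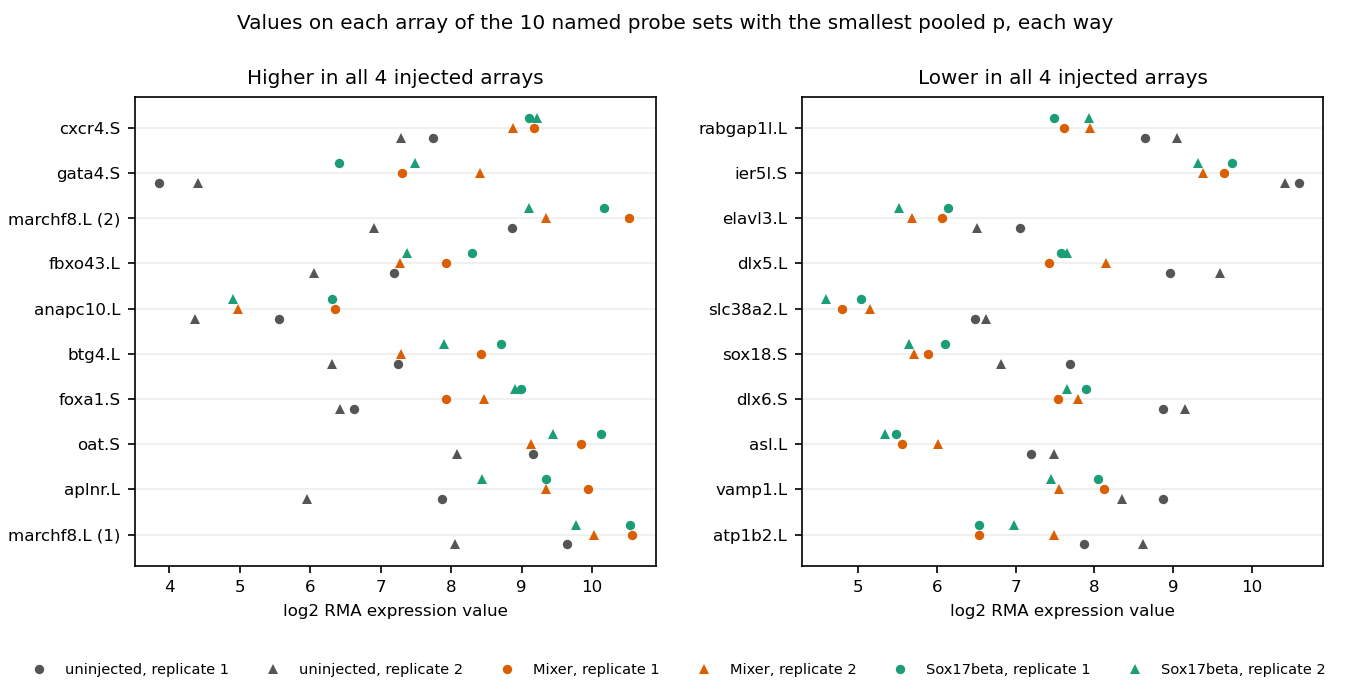
Values on the log2 scale (x axis) on each of the 6 arrays for the 10 named probe sets with the smallest pooled p in each direction (y axis), with gray for uninjected, orange for Mixer and green for Sox17beta caps, circles for replicate 1 and triangles for replicate 2. No probe set passed the pooled fit, and in cxcr4.S and gata4.S all injected arrays lie to the right of both uninjected arrays, while in anapc10.L the replicates differ more than the groups.

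Of the 32 probe sets of the endoderm list, 19 (59.4%) were higher members and 3 (9.38%) were lower. Over all probe sets the shares were 18.8% and 13.2%. Of the list's members 13 rose and 1 fell, and the others did not pass. A further 2 passed upward with no common sign, one of them mixer.L. The 13 include mixer.S and both probe sets of sox17b.1.S, copies of the injected genes. The median difference over the list was 0.64 (0.50 with Mixer and 0.23 with Sox17beta), against 0.04 over all probe sets. The average can pass when 1 group is near 0, as in the genes that follow. The SoxF genes sox17a.L and sox17a.S read 4.22 and 4.03, and 4.28 and 4.34, in uninjected caps. With Mixer they read 6.67 and 7.92, and 7.12 and 7.56, while with Sox17beta they read 4.28 and 4.29, and 4.51 and 4.39. The T-box gene eomes.L, an activator of mesoderm and endoderm, had the opposite pattern, at 5.41 and 5.23 uninjected, 5.55 and 5.32 with Mixer and 7.93 and 8.21 with Sox17beta. A lower member of the SoxF group, sox18.S, is known from blood vessel formation. It read 7.69 and 6.82 uninjected, 5.89 and 5.71 with Mixer and 6.11 and 5.65 with Sox17beta. It fell in both groups alike, by 1.42 (SE 0.15, adjusted p = 0.00706), with only 2 arrays above the highest absent control. sox7.L, also of the SoxF group, was a lower member that did not pass (adjusted p = 0.151). On every array sox7.L lay below the highest absent control. Without Sox17beta replicate 1, the list's median difference was 0.6.

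Fewer genes of the mesoderm and organizer lists passed. Of 34 mesoderm probe sets, 14 (41.2%) were higher members, 0 were lower and 20 had no common sign. Over all probe sets, 18.8% were higher and 13.2% lower members. On the mesoderm list 4 members rose, and the list's median was 0.18. Among the 4, eomes.L differed by 0.12 on average with Mixer and 2.75 with Sox17beta, and wnt11b.L by 2.45 with Mixer and 0.30 with Sox17beta. A further mesoderm probe set, of pnhd.L, passed upward with no common sign. The largest was aplnr.L, the receptor for apelin and Elabela peptides that guides migrating mesendoderm. It read 7.87 and 5.95 in uninjected caps, 9.94 and 9.35 in Mixer caps and 9.34 and 8.44 in Sox17beta caps. The uninjected arrays lay far apart, yet every injected array lay above both, and it rose by 2.36 (5.12-fold, SE 0.25, adjusted p = 0.0072). The Wnt ligand wnt8a.L, a ventrolateral mesoderm signal, rose by 0.90 (SE 0.10, adjusted p = 0.00771) from uninjected values of 5.36 and 5.46. In the organizer list, 11 of 28 probe sets (39.3%) were higher members, 2 (7.14%) were lower, 15 had no common sign, and 5 members rose and 1 fell. The rises were both probe sets of otx2.L, the Wnt antagonist frzb.S, one probe set of the homeobox gene gsc.L and cer1.S, a secreted Nodal, BMP and Wnt antagonist, and the fall was the homeobox repressor hesx1.L. Of these, otx2.L and cer1.S were already counted among the rises of the endoderm list, as was eomes.L of the mesoderm list. On all 6 arrays frzb.S, gsc.L and hesx1.L lay below that array's highest absent control, so no size is given for them. Only 1 array read above it for cer1.S, at 4.74 and 4.71 uninjected, 5.9 and 6.52 with Mixer and 4.94 and 5.13 with Sox17beta. A further 3 organizer probe sets passed upward and 1 downward with no common sign. Without Sox17beta replicate 1, the median was 0.24 on the mesoderm list and 0.42 on the organizer list, against 0.18 and 0.32 with all arrays.

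The chemokine receptor cxcr4.S, which steers migrating cells including mesendoderm, had the smallest pooled p of the named higher members. It read 7.74 and 7.29 in uninjected caps, 9.17 and 8.88 in Mixer caps, and 9.11 and 9.22 in Sox17beta caps. The 4 injected values lay close together and above both controls. It rose by 1.58 (2.99-fold, SE 0.13, adjusted p = 0.00422). Its other copy, cxcr4.L, went the other way. It read 9.59 and 9.45 uninjected, 9.34 and 9.33 with Mixer, and 8.22 and 7.47 with Sox17beta, a fall by 0.93 on average (SE 0.16, adjusted p = 0.0259) that lay mostly in Sox17beta caps. This pair was singled out after its values were seen.

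Higher members outside the endoderm and mesoderm lists included genes known from the oocyte and early cleavage. btg4.L, of the BTG family that recruits the deadenylase acting on maternal RNA, read 7.25 and 6.31 uninjected, 8.42 and 7.29 with Mixer and 8.7 and 7.9 with Sox17beta. The difference was 1.3 (SE 0.11, adjusted p = 0.00418, rose), and btg4.S rose by 1.64 (SE 0.18, adjusted p = 0.00783). fbxo43.L, the Erp1/Emi2 inhibitor of the anaphase-promoting complex in the egg, rose by 1.09 (SE 0.12, adjusted p = 0.00783). ccnb1.S, a mitotic cyclin, rose by 1.21 (SE 0.21, adjusted p = 0.0259), and ccna1.L, the embryonic A-type cyclin, by 0.67 (SE 0.11, adjusted p = 0.0253). In all of these, replicate 1 read above replicate 2 in each group, and ccnb1.S read 11.1 and 9.42 in the uninjected pair alone. In btg4.S, ccnb1.S and ccna1.L the injected and uninjected values overlapped, and the differences held only within a replicate number. The cell cycle list, which holds ccnb1.S and ccna1.L, had 4 falls beside 3 rises. All 3 probe sets of marchf8.L, a membrane-bound ubiquitin ligase, rose, by 1.38, 1.68 and 1.90 (adjusted p = 0.0161, 0.0195 and 0.00584). The peroxide-reducing enzyme gene prdx2.L read 7.29 and 6.37 uninjected, 8.63 and 7.73 with Mixer and 9.57 and 9.28 with Sox17beta, and rose by 1.97 (SE 0.15, adjusted p = 0.00357). oat.S, ornithine aminotransferase, rose by 1.01 (SE 0.12, adjusted p = 0.00847), and anapc10.L, a subunit of the anaphase-promoting complex, by 0.67 (SE 0.10, adjusted p = 0.0158). In both of these the injected and uninjected values overlapped too, and anapc10.L lay above the highest absent control on only 1 array. Among 23 probe sets of the housekeeping list, 5 were higher and 5 lower members (21.7% each, against 18.8% and 13.2% of all probe sets). The 3 that rose were both copies of the TATA-binding protein gene, tbp.L (1.06) and tbp.S (0.86), and hprt1.L (0.87). In all 3 the injected and uninjected values overlapped, and hprt1.L differed by 0.355 with Mixer and 1.38 with Sox17beta.

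Lower members were frequent on the epidermal list, which holds regulators and keratins. Of 48 probe sets of the epidermal list, 26 (54.2%) were lower members, 2 (4.17%) were higher and 20 had no common sign. Over all probe sets, 13.2% were lower and 18.8% higher members. Of the list's members 19 fell and 0 rose, and 2 probe sets with no common sign passed upward. The list's median was -0.74, against 0.04 over all probe sets, and was -0.37 with Mixer and -1.06 with Sox17beta. dlx3.S, a Distal-less homeobox gene required for non-neural ectoderm, read 10.14 and 9.9 in uninjected caps, 8.27 and 8.17 in Mixer caps and 8.06 and 6.2 in Sox17beta caps. All injected arrays lay below both controls, Sox17beta replicate 2 furthest. It fell by 2.35 (SE 0.34, adjusted p = 0.0148), and dlx3.L fell by 1.90 (SE 0.32, adjusted p = 0.0243). dlx5.L was close to equal in the 2 injected groups, at 8.96 and 9.59 uninjected, 7.42 and 8.15 with Mixer and 7.58 and 7.65 with Sox17beta (fell by 1.58, SE 0.15, adjusted p = 0.00508). The related dlx6.S fell by 1.29 (SE 0.13, adjusted p = 0.00704).

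Further regulators of surface ectoderm moved the same way. The forkhead genes foxi4.2.L and foxi4.2.S, of the Foxi1e type that promotes ectoderm identity in this species, fell by 1.48 (SE 0.18, adjusted p = 0.00963) and 1.51 (SE 0.17, adjusted p = 0.00783). tfap2a.L, the AP-2 activator of epidermal genes, read 10.04 and 10.33 uninjected, 8.92 and 9.44 with Mixer and 8.31 and 7.83 with Sox17beta, and fell by 1.56 (SE 0.20, adjusted p = 0.0102). kctd15.L, an AP-2 inhibitor at the neural crest border, read 6.52 and 6.88 uninjected, 4.39 and 4.45 with Mixer and 5.76 and 4.73 with Sox17beta. It fell by 1.87 (SE 0.26, adjusted p = 0.0137), with only 2 arrays above the highest absent control. The keratin genes krt12.5.S and krt12.4.L, structural proteins of the epithelium, fell by 2.88 (SE 0.46, adjusted p = 0.0218) and 2.05 (SE 0.33, adjusted p = 0.0205). krt12.5.S read 7.79 and 9.7 uninjected, 5 and 7.37 with Mixer and 5.66 and 5.45 with Sox17beta. Its uninjected arrays lay far apart, but every injected array lay below both. Only 3 arrays read above the highest absent control for it. Some other keratins on the list stayed near 0, among them krt19.L at 0.12 and krt18.1.L at -0.24, which did not pass. Over all 29 probe sets of keratin genes, a group added after values were seen, 10 were lower members and 1 was higher, against 13.2% and 18.8% of all probe sets. Of these members 5 fell and 0 rose, and the median over the 29 was -0.09.

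The 2 epidermal-list probe sets that passed upward were not members. itln1.L, an intelectin that epidermal secretory cells release into mucus, read 5.63 and 5.89 uninjected, 8.76 and 10.06 with Mixer and 5.95 and 5.66 with Sox17beta. One probe set of msx2.L, a BMP-responsive homeobox gene, read 6.94 and 6.58 uninjected, 9.7 and 8.84 with Mixer and 6.61 and 6.16 with Sox17beta. Both were high in Mixer caps alone, and their averages passed at adjusted p = 0.0183 (itln1.L) and 0.00895 (msx2.L). Without Sox17beta replicate 1, the median of the epidermal list was -0.7.

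**Figure D2:**
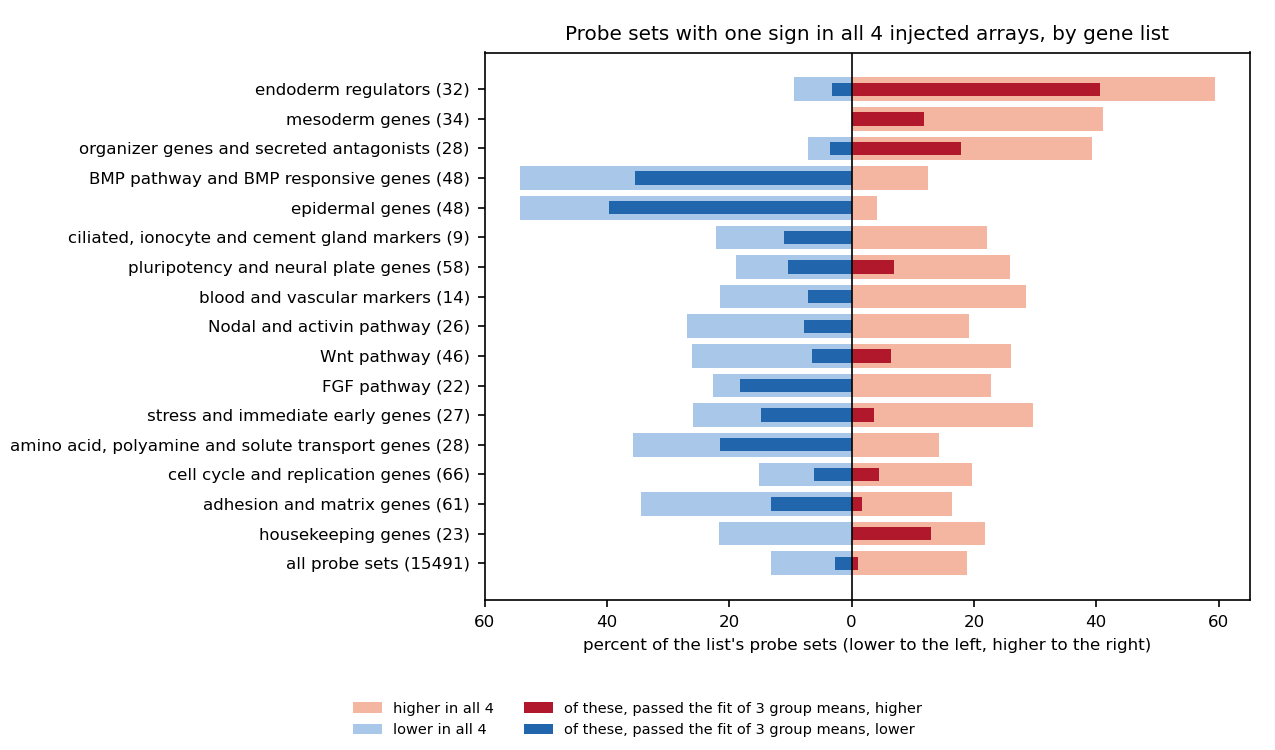
Share of each gene list's probe sets (x axis, percent; number of probe sets in parentheses) that were higher (right) or lower (left) in all 4 injected arrays, with the darker bars for those that also passed the fit of 3 group means; the last bar is all 15491 probe sets. The endoderm list reaches furthest to the right, with 19 of 32, and the BMP and epidermal lists furthest to the left, each with 26 of 48.

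On the BMP list, 26 of 48 probe sets were lower members, 6 were higher and 16 had no common sign. Of the members 17 fell and 0 rose, and the msx2.L probe set described above passed upward. The list's median was -0.50, and was -0.15 with Mixer and -0.77 with Sox17beta. Some genes, such as gata2.L, msx1.L and msx1.S, stand on both lists. bmp7.2.L, a BMP ligand, read 11.63 and 12.02 in uninjected caps, 10.46 and 10.93 in Mixer caps and 10.31 and 9.66 in Sox17beta caps. The groups did not overlap, and it fell by 1.49 (SE 0.23, adjusted p = 0.018). One probe set of the receptor bmpr1a.S fell by 0.50 (SE 0.10, adjusted p = 0.0406).

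Feedback inhibitors and targets of BMP signalling were lower as well. szl.L and szl.S encode Sizzled, which slows breakdown of the BMP antagonist Chordin. szl.L read 7.49 and 7.22 uninjected, 5.88 and 5.57 with Mixer and 5.4 and 3.86 with Sox17beta, and fell by 2.18 (4.52-fold, SE 0.26, adjusted p = 0.00887). szl.S fell by 2.04 (SE 0.27, adjusted p = 0.0127). Only 2 arrays, both uninjected, read above the highest absent control for szl.L, and only 3 for szl.S, so the sizes of these falls are uncertain. The decoy receptor gene bambi.L read 9.87 and 9.68 uninjected, 8.34 and 8.51 with Mixer and 7.83 and 7.33 with Sox17beta (fell by 1.77, SE 0.14, adjusted p = 0.00418). In each of these the Sox17beta arrays were the lowest. All 3 probe sets of the inhibitory Smad gene smad7.L fell, by 0.71 to 0.87 (adjusted p from 0.00895 to 0.0244). The targets id2.L and id2.S fell by 1.23 and 1.21 (adjusted p = 0.0335 and 0.0498), msx1.L by 1.19 and msx1.S by 0.68 (adjusted p = 0.00477 and 0.0155), and ventx2.1.L by 0.70 (adjusted p = 0.0205). The difference of msx1.L was -0.73 with Mixer and -1.65 with Sox17beta. bmp4.S, a second ligand of the pathway, was a lower member at -1.01 that did not pass. In the pooled fit without Sox17beta replicate 1, which is weighted towards Mixer, the median of the BMP list was -0.36.

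**Figure D3:**
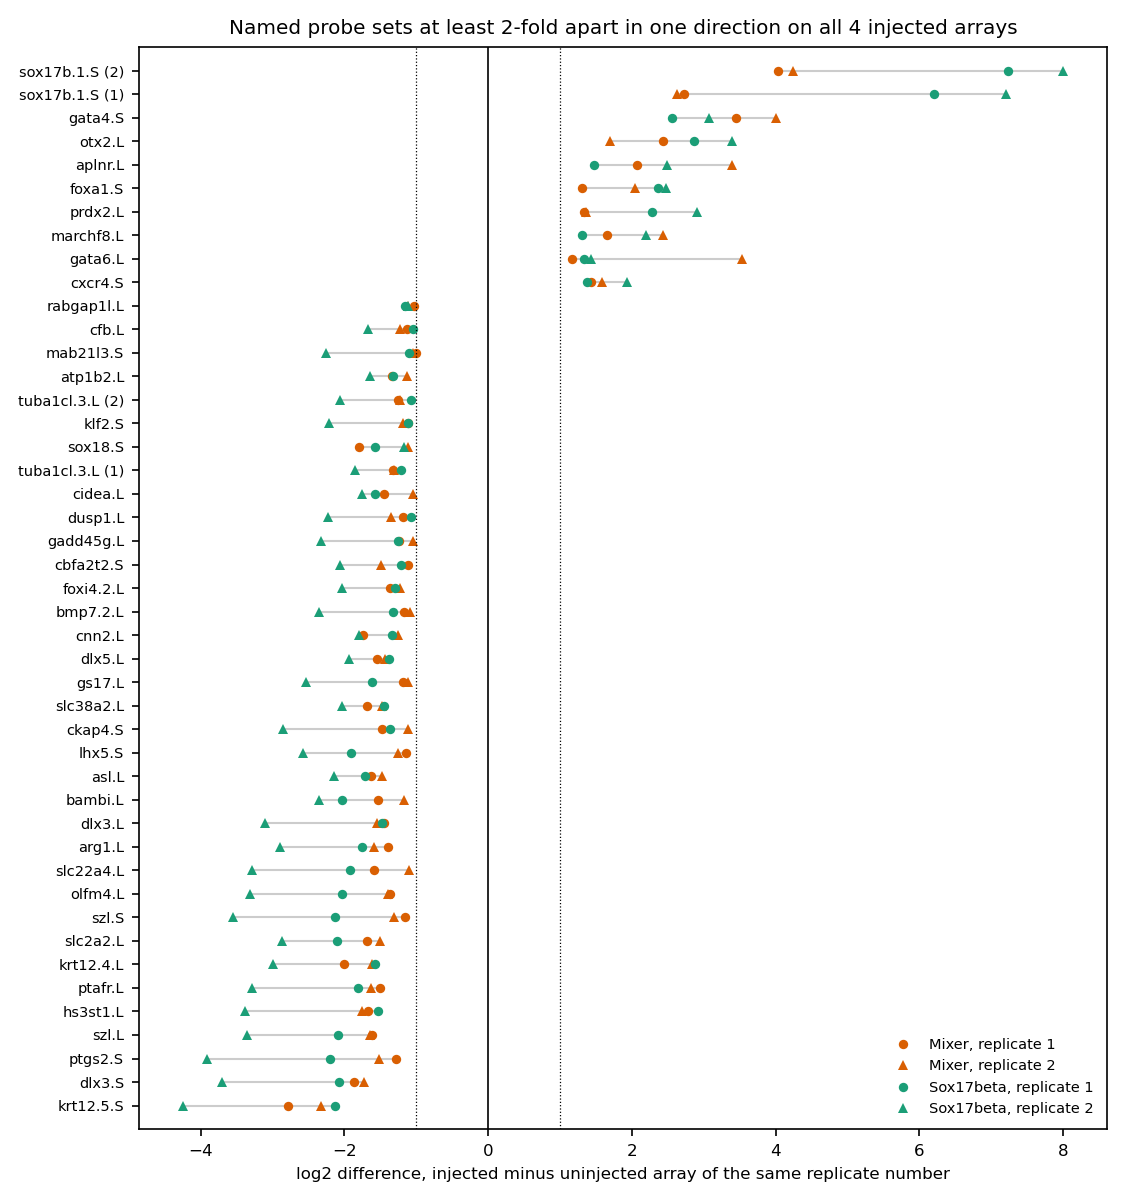
The 4 differences on the log2 scale between each injected array and the uninjected array of its replicate number (x axis), for the 45 probe sets with 1 usable symbol whose differences were all at least 1 (dotted lines) in one direction; orange is Mixer, green is Sox17beta, circles are replicate 1 and triangles replicate 2. The keratin krt12.5.S reaches furthest left and sox17b.1.S, an injected gene, furthest right, and Sox17beta replicate 2 is the lowest array in many of the lower probe sets.

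On the list of amino acid, polyamine and solute transport genes, 10 of 28 probe sets were lower members (35.7%) and 4 were higher (14.3%). Over all probe sets the shares were 13.2% and 18.8%. Of the list's members 6 fell and 0 rose, while the median was -0.03. Over all 131 probe sets of solute carrier (slc) genes, a group added after values were seen, 14 were higher members and 20 were lower. These counts too are to be read against 18.8% higher and 13.2% lower over all probe sets. Of the slc members 1 rose and 7 fell, and the median over the 131 was 0.04. asl.L, argininosuccinate lyase of the urea cycle, read 7.19 and 7.49 uninjected, 5.56 and 6.02 with Mixer and 5.48 and 5.34 with Sox17beta, and fell by 1.74 (3.34-fold, SE 0.14, adjusted p = 0.00418). arg1.L, arginase, fell by 1.91 (SE 0.22, adjusted p = 0.00867). The injected arrays of both lay below both uninjected arrays. slc2a2.L, a glucose transporter, fell by 2.04 (SE 0.19, adjusted p = 0.00493). slc38a2.L, a neutral amino acid transporter, read 6.49 and 6.63 uninjected, 4.8 and 5.15 with Mixer and 5.04 and 4.59 with Sox17beta. It fell by 1.67 (SE 0.16, adjusted p = 0.00636). Only 2 arrays read above the highest absent control for slc38a2.L and only 3 for asl.L, so the sizes of these falls are uncertain. sat1.L, which acetylates polyamines, fell by 1.29 (SE 0.12, adjusted p = 0.00493), and the arginine transporter slc7a3.L by 0.88 (SE 0.10, adjusted p = 0.00779). Without Sox17beta replicate 1, the median of the transport list was -0.08.

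Signalling, stress and adhesion genes gave mixed counts, to be read against 18.8% higher and 13.2% lower over all probe sets. On the FGF list 5 of 22 probe sets were higher (22.7%), 5 lower (22.7%), 0 rose and 4 fell: 3 probe sets of the FGF receptor genes fgfr4.L and fgfr4.S (by 0.83 to 1.17) and dusp1.L, a MAP kinase phosphatase, by 1.46 (adjusted p = 0.0195). On the stress list 8 of 27 were higher (29.6%), 7 lower (25.9%), 1 rose and 4 fell. ptgs2.S, for a prostaglandin synthase, fell by 2.23 (SE 0.32, adjusted p = 0.0148), from 10.37 and 10.16 uninjected to 9.09 and 8.64 with Mixer and 8.17 and 6.25 with Sox17beta. The stress-inducible ddit4.S rose by 1.18 (adjusted p = 0.0325), mostly in Mixer caps. On the adhesion list 21 of 61 were lower (34.4%), 10 higher (16.4%), 8 fell and 1 rose. The 3 probe sets of the proteoglycan gene sdc4.L fell by 1.11 to 1.32, the tight junction gene cldn4.L by 1.26 (adjusted p = 0.0178), and the ephrin gene efna1.L by 1.02 (adjusted p = 0.0128).

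Shares of higher members on the following lists lay near the 18.8% of all probe sets in the Nodal (19.2%) and cell cycle (19.7%) lists. The Nodal list had 5 higher and 7 lower (26.9%, against 13.2% of all) of 26, with 0 rises and 2 falls, the co-receptor tdgf1.3.L by 0.82 (adjusted p = 0.0222) and smad4.L by 0.55 (adjusted p = 0.0381). The Wnt list had 12 higher and 12 lower of 46 (26.1% each), with 3 rises and 3 falls. Its rises, wnt8a.L, wnt11b.L and frzb.S, were already counted on the mesoderm or organizer list. Its falls included both copies of the repressor tcf7l1 (tcf7l1.L by 0.62 and tcf7l1.S by 0.63). The pluripotency and neural list had 15 higher (25.9%) and 11 lower (19%) of 58, with 4 rises and 6 falls. Its rises were irx4.L, dmrta2.S, foxd3.S and hes1.S. The highest absent control was exceeded by foxd3.S on 0 arrays, by hes1.S on 1, and by irx4.L and dmrta2.S on 2 each. Most of the difference lay in Sox17beta caps in irx4.L (0.17 with Mixer, 3.86 with Sox17beta), dmrta2.S (0.46 and 3.16) and foxd3.S. hes4.L, a Notch-type repressor of the neural plate border, fell by 1.56 (SE 0.15, adjusted p = 0.00636), and the neuronal RNA-binding protein gene elavl3.L was lower by 0.93 and fell (SE 0.10, adjusted p = 0.00753). The cell cycle list had 13 higher and 10 lower (15.2%) of 66, with 3 rises and 4 falls. Of the rises, ccnd2 lay below the highest absent control on every array. Among the falls were ccne2.L by 1.56 and cdk2.S by 0.61 (adjusted p = 0.00783 and 0.0258), and ccnd1.L by 1.11 and ccnd1.S by 0.91 (adjusted p = 0.00579 and 0.0107). Those of ccnd1.L and ccnd1.S lay mostly in Sox17beta caps, where the differences were -1.75 and -1.435, against -0.46 and -0.375 with Mixer. For ccne2.L they were -2.41 with Sox17beta and -0.7 with Mixer. Blood and vascular markers (14 probe sets) had 4 higher (28.6%), 3 lower (21.4%) and 1 fall, sox18.S. Markers of ciliated cells, ionocytes and cement gland (9) had 2 higher and 2 lower (22.2% each) and 1 fall. That fall was ag1.L, a cement gland gene, which read 9.88 and 10.7 uninjected, 9.34 and 10.65 with Mixer and 7.49 and 7.41 with Sox17beta. With no common sign, sfrp2.S of the Wnt list passed downward and wee1.S of the cell cycle list upward. The medians of the last 2 lists were near 0 (0.14 and -0.06), and the part of other cell types in the results was not tested.

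Other large falls lay outside the lists. The heparan sulfate sulfotransferase gene hs3st1.L fell by 2.09 (adjusted p = 0.0261), the receptor gene ptafr.L for platelet-activating factor by 2.06 (adjusted p = 0.0138), and the secreted glycoprotein gene olfm4.L by 2.03 (adjusted p = 0.0105). The kinase gene hunk.L fell by 1.88 (adjusted p = 0.00464), with the larger differences in Sox17beta caps. rabgap1l.L, a Rab GTPase activator, had the smallest pooled p among the named lower members. It read 8.64 and 9.05 uninjected, 7.61 and 7.94 with Mixer and 7.49 and 7.93 with Sox17beta, so that the 2 injected groups nearly coincided (fell by 1.1, SE 0.09, adjusted p = 0.00422). The immediate early gene relative ier5l.S was as even, at 10.6 and 10.42 uninjected, 9.64 and 9.38 with Mixer and 9.75 and 9.32 with Sox17beta (fell by 0.99, SE 0.10, adjusted p = 0.00683). vamp1.L, a vesicle fusion protein gene, fell by 0.82 (adjusted p = 0.0079), and atp1b2.L, a sodium pump subunit gene, by 1.36 (adjusted p = 0.00493). Of probe sets with no usable symbol, the 2 with the smallest pooled p fell (adjusted p = 0.00286 each), at 0.0595 in the pooled fit. One fell by 1.42 and lay above the highest absent control on 2 arrays. The other lay below that control on every array, so no size is given for it.

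Xenopus laevis carries a long-chromosome (L) and a short-chromosome (S) copy of many genes from an ancient genome doubling. Each copy was represented by its probe set of highest mean level. Of 1016 genes measured for both copies, both were higher members in 69, both lower in 81 and opposite in 14. Over all probe sets, 18.8% were higher and 13.2% lower members, 1.05% were members that rose and 2.76% members that fell. In 346 only 1 copy was a member, and in 506 neither was. Both copies were members and passed in the same direction in 24 genes: 5 rose (gata4, sox17a, btg4, tbp and leprot) and 19 fell. Among the falls, szl differed by -2.18 (L) and -2.04 (S), dlx3 by -1.90 and -2.35, foxi4.2 by -1.48 and -1.51, cbfa2t2 by -1.27 and -1.47, id2 by -1.23 and -1.21 and midn by -1.18 and -1.14. The copies of gata4 were less alike, since gata4.L read 8.66 and 8.8 in Mixer caps but 5.53 and 5.3 in Sox17beta caps, against 5.2 and 5.09 uninjected. With that choice of probe sets, both copies passed in opposite directions in cxcr4 alone. How far a probe set of 1 copy also reads the other copy was not tested.

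**Figure D4:**
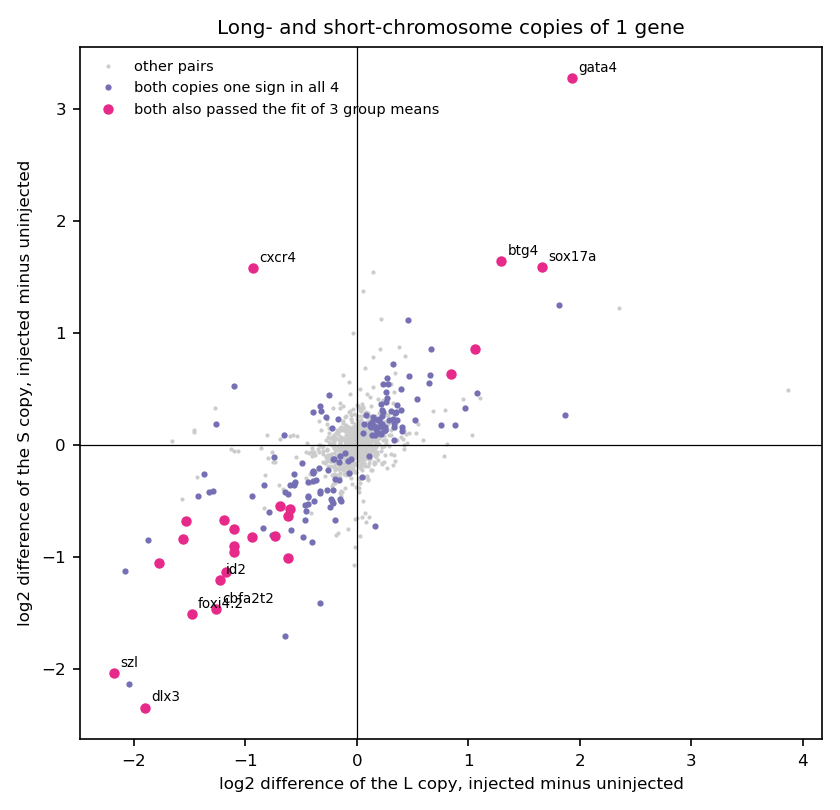
Log2 difference between injected and uninjected caps of the L copy (x axis) and the S copy (y axis) for 1016 genes, with violet points where both copies had one sign in all 4 injected arrays and pink points where both also passed the fit of 3 group means. szl and dlx3 lie furthest down and left, gata4 furthest up, and cxcr4 is the pink point with copies of opposite sign.

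The sizes of the response in the 2 injected groups were compared directly. A test of Mixer against Sox17beta caps uses no uninjected array in its difference, although all arrays enter the estimate of spread. It passed 241 probe sets (1.56%), 94 of them members (1.9% of members, near the share of all probe sets). Among members that passed the fit of 3 group means the share was larger. Of the 162 that rose 45 also passed this test, and of the 427 that fell 36 did. Over all 241 probe sets that passed, Mixer was above Sox17beta in 155 and Sox17beta above in 86. In the 54 higher members that passed, Sox17beta was above Mixer in 36 and Mixer above in 18. Of the 40 lower members that passed, 39 were lower with Sox17beta and 1 with Mixer. Without the replicate block 9 probe sets, 5 of them members, passed. Over all members, the difference was larger with Sox17beta in both replicates in 1145 higher and 791 lower probe sets, and larger with Mixer in both in 524 and 367. The shares over all probe sets are not given here. On Sox17beta replicate 1 the absent controls also differed from their uninjected partner, by a median of 0.28 against 0.01, 0 and 0.03 on Mixer replicates 1 and 2 and Sox17beta replicate 2. Within replicate number 2, without that array, the difference was larger with Sox17beta in 1932 of 2912 higher members and larger with Mixer in 901. In lower members the counts were 1392 and 599. Within replicate number 1 they were 1539 and 1302 in higher members, and 1024 and 977 in lower members. The excess with Sox17beta was thus smaller within replicate number 1, and nearly absent in its lower members. The median size of the difference among lower members was 0.30 and 0.24 in Mixer replicates 1 and 2 and 0.29 and 0.35 in Sox17beta replicates 1 and 2, so the groups overlapped in size.

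**Figure D5:**
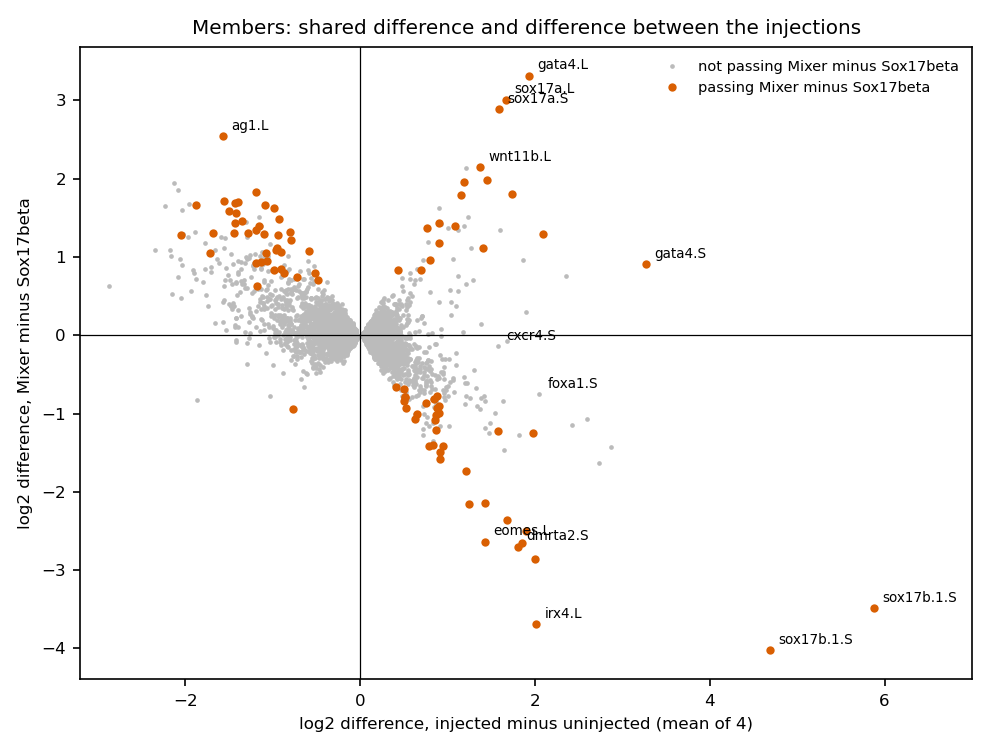
Average log2 difference between injected and uninjected caps (x axis) against the difference between Mixer and Sox17beta caps (y axis) for the 4951 members, with orange points for the 94 that passed the test of Mixer against Sox17beta. cxcr4.S lies near 0 on the y axis, gata4.L and sox17a lie high, and irx4.L and eomes.L low.

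In cxcr4.S the difference between Mixer and Sox17beta caps did not pass, at -0.14 (adjusted p = 0.721) and a 95% interval from -0.50 to 0.22. For dlx5.L it was 0.17 (adjusted p = 0.698), with an interval from -0.24 to 0.58. gata4.S was higher with Mixer by 0.91 (adjusted p = 0.0473). Apart from the injected sox17b.1.S, the named higher members that split most were irx4.L and gata4.L. irx4.L, an Iroquois homeobox gene of neural and heart patterning, read 4.56 and 4.52 uninjected, 4.85 and 4.57 with Mixer and 8.12 and 8.68 with Sox17beta, so its common sign rested on Mixer differences of 0.29 and 0.05. dmrta2.S, a gene of forebrain and olfactory patterning, read 4.06 and 3.93 uninjected, 4.56 and 4.35 with Mixer and 6.67 and 7.64 with Sox17beta. wnt11b.L, a ligand of cell movement and early axis signals, read 6.56 and 5.79 uninjected, 8.59 and 8.66 with Mixer and 7.02 and 5.93 with Sox17beta. Such genes met the rule by sign while nearly all of their difference lay in 1 group.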

How the data were processed

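The values are log2 expression values per probe set, deposited by the authors which the submitters' processing notes say came from RMA. Its version, and whether all 6 arrays went through 1 run, is not given in the sources used here. No further normalization was applied, and no genome build or coordinates were used. Of 15611 probe sets, 120 controls were left out. Of the 15491 tested, 9304 had 1 symbol in the platform's annotation table, 195 several and 5992 none; 9227 matched RefSeq by gene identifier, 2 symbols were updated and 291 were placeholders treated as unnamed.

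Groups and replicate numbers came from the labels. Differences were fitted in limma 3.58.1 (R 4.3.3) with lmFit and eBayes, with injected against uninjected plus a replicate block (3 residual degrees of freedom), and as an alternative with 3 group means plus the block (2). Tests were two-sided, with Benjamini-Hochberg adjustment over all probe sets and a threshold of 0.05. Both fits were tested on simulated data. There the pooled fit kept its share of false calls under the threshold and the fit of 3 group means exceeded it, so its adjusted p-values were too small in the simulation. The simulated noise was independent between arrays, so the size of this excess in the real arrays is not known. Figures used matplotlib 3.10.9 (Python 3.11.15). The precision is limited by 2 arrays per group.

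Same-numbered arrays varied together, since deviations from the group means correlated at 0.867 (uninjected and Mixer), 0.732 (uninjected and Sox17beta) and 0.776 (Mixer and Sox17beta), and the first principal component (55.5% of variance) separated the numbers. With 2 arrays a group, each correlation rests on 1 difference between replicates per group, and the block comes from the rule for the members.

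The members and the 16 gene lists were chosen with earlier results of these data known. The rule for named genes took the 15 largest passing members each way, filled to 10 by the smallest pooled p where fewer passed, plus mixer and sox17b themselves, up to 4 passing probe sets per list (or the 2 of smallest p), up to 10 copy pairs, no more than 2 unnamed ones in each direction, and 5 each way by the Mixer against Sox17beta difference. As the pooled fit passed none, the same numbers were also taken from the fit of 3 group means after the values were seen. Probe sets with all 4 differences at least 1, every passing list member, opposite copies and list members shown for contrast were likewise added then. Alternatives were no block, a filter at the 25th percentile of level, quantile normalization, an intensity trend, and each array left out.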

Additional observations from a re-analysis of the deposited data

Results flagged for a closer look

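The rule for single stray samples needs 4 or more arrays in a group and could not be applied to groups of 2. Of 149 named probe sets, 31 passed the test of Mixer against Sox17beta, and 10 of them, the 5 of widest difference each way among members, are given here. In these the effects of Mixer and Sox17beta, each set against the same 2 uninjected arrays, differed in limma with the replicate block. On the log2 scale, Mixer minus Sox17beta was 3.32 in gata4.L, 3.01 in sox17a.L, 2.89 in sox17a.S and 2.15 in wnt11b.L, all higher members. It was 2.54 in ag1.L, a lower member that fell mainly with Sox17beta. It was -3.69 in irx4.L, -2.7 in dmrta2.S and -2.63 in eomes.L, higher members with Mixer values near the uninjected ones. The probe sets of sox17b.1.S gave -4.03 and -3.48, where the injected transcript itself is read in Sox17beta caps.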

How the results depend on the processing

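The pooled fit passed 0 probe sets with no replicate block (658 at an unadjusted p under 0.05), with the level filter, with the intensity trend or with a 2-fold minimum, 1 after quantile normalization, and 623 when the 2 injected groups had separate means. Leaving out 1 array gave 0 to 232, with 157 without Mixer replicate 2 and 232 without Sox17beta replicate 2. The fit of 3 group means passed 623, against 3 with no replicate block, 562 to 718 under the filter, quantile normalization and trend, and 0 to 420 with 1 array left out. Mixer against Sox17beta passed 241, against 9 with no replicate block, 197 with the filter, 322 after quantile normalization, 267 with the trend and 0 to 136 with 1 array left out. Of members it passed 94, against 5, 77, 126, 102 and 0 to 76.

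The rule gave 4951 members. It gave 874 when each difference had to reach 0.25, 3853 against the mean of the uninjected arrays with no replicate block, 4861 after quantile normalization and 3875 with the filter. It gave 6195 to 6694 without 1 injected array, and 10235 and 10314 on 1 replicate number alone. Of the 149 named probe sets, 142 passed with 3 group means, against 4.02% of all probe sets. Many were named for passing that fit, so the 142 follow from the choice and say nothing of stability. In the pooled fit, 1 of the named probe sets passed after quantile normalization, 59 without Mixer replicate 2 and 80 without Sox17beta replicate 2. Their signs say nothing of stability, since members were chosen for one sign. The alternatives for the 3 group means and for members were chosen after seeing the data. The causes of the changes were not tested. Low signal limits differences under the absent controls.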
